A study of Mus musculus with 4 samples.

Results

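Mitochondrial ribosomal proteins are the nuclear-encoded proteins of the ribosome that works inside mitochondria. They were taken here as every row of the deposited mouse gene table whose symbol is Mrpl or Mrps followed by a number and at most 1 letter, and whose counts over the 4 libraries sum to at least 48. The rule gave 78 of the 55401 genes in the table, 49 with the Mrpl prefix of the large subunit and 29 with the Mrps prefix of the small subunit, and the count minimum removed none. All 78 also passed the expression filter of the test, which left 18475 genes. The libraries are poly(A)-selected RNA sequencing libraries of mouse heart tissue at day 28. In 2 libraries (MI) the hearts had been infarcted by a ligation operation, and in 2 libraries (Sham) the chest had been opened without ligation. The labels give no strain, sex, age or genotype, and whether each library is 1 animal is not said either, and the p-values below rest on differences among single libraries that may be technical. The series title names cyanidin, and cyanidin hearts were not analysed here.

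The mitochondrial ribosome translates the messages of mitochondrial DNA, which encode core subunits of the respiratory chain and of ATP synthase. Its small subunit binds the message and decodes it, and its large subunit joins amino acids and passes the growing chain towards the inner membrane, where most of its products are inserted. Its proteins are made in the cytosol and imported, while its RNAs come from mitochondrial DNA. Heart muscle is rich in mitochondria, and human variants in several of these genes cause cardiomyopathy.

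The libraries held between 66624106 and 75979320 estimated counts. The share of counts from the mitochondrial genome was 27.3% and 30.9% in MI, against 34.0% and 32.6% in Sham. Ventricular cardiomyocyte markers were abundant in every library, with a summed FPKM (the authors' abundance, corrected for gene length and sequencing depth) of 10576 to 11158 over 10 genes in MI, against 11014 to 11449 in Sham, and none of the 10 was at 0. All 8 fibroblast markers had higher scaled counts in both MI libraries than in both Sham libraries, against 24.9% of all genes. Their summed FPKM was 499 and 285 in MI, against 87.5 and 130 in Sham. Some libraries also carried other tissue. Sham replicate 2 held atrial transcripts, with Myl7 at 1128 FPKM against 0.41 to 1.20 in the other 3 libraries. The 6 atrial markers summed to 2643 and 1863 FPKM in MI, against 153 and 5046 FPKM in Sham. Nppa made up most of the MI sums, with 2632 and 1855 FPKM in MI, against 151 and 3515 FPKM in Sham. Sham replicate 2 also held fat transcripts, with 184 summed FPKM over 6 genes against 1.07 at most elsewhere. MI replicate 1 held lung transcripts, with 280 summed FPKM over 8 genes against 0.53 at most elsewhere, where 5 to 7 of the 8 were at 0. The part of these differences in the results below was not tested, and results are given with and without those libraries.

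Members differed widely in level. Mean FPKM over the 4 libraries ran from 1.75 for Mrps10 to 90.4 for Mrps21, a 51.8-fold range, with a median of 12.4. The median was 14.4 FPKM for the large-subunit genes and 9.62 FPKM for the small-subunit genes. The 6 most abundant members made up 26.9% of the summed FPKM. Being corrected for length, FPKM allows genes to be compared within a library.

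**Figure D1:**
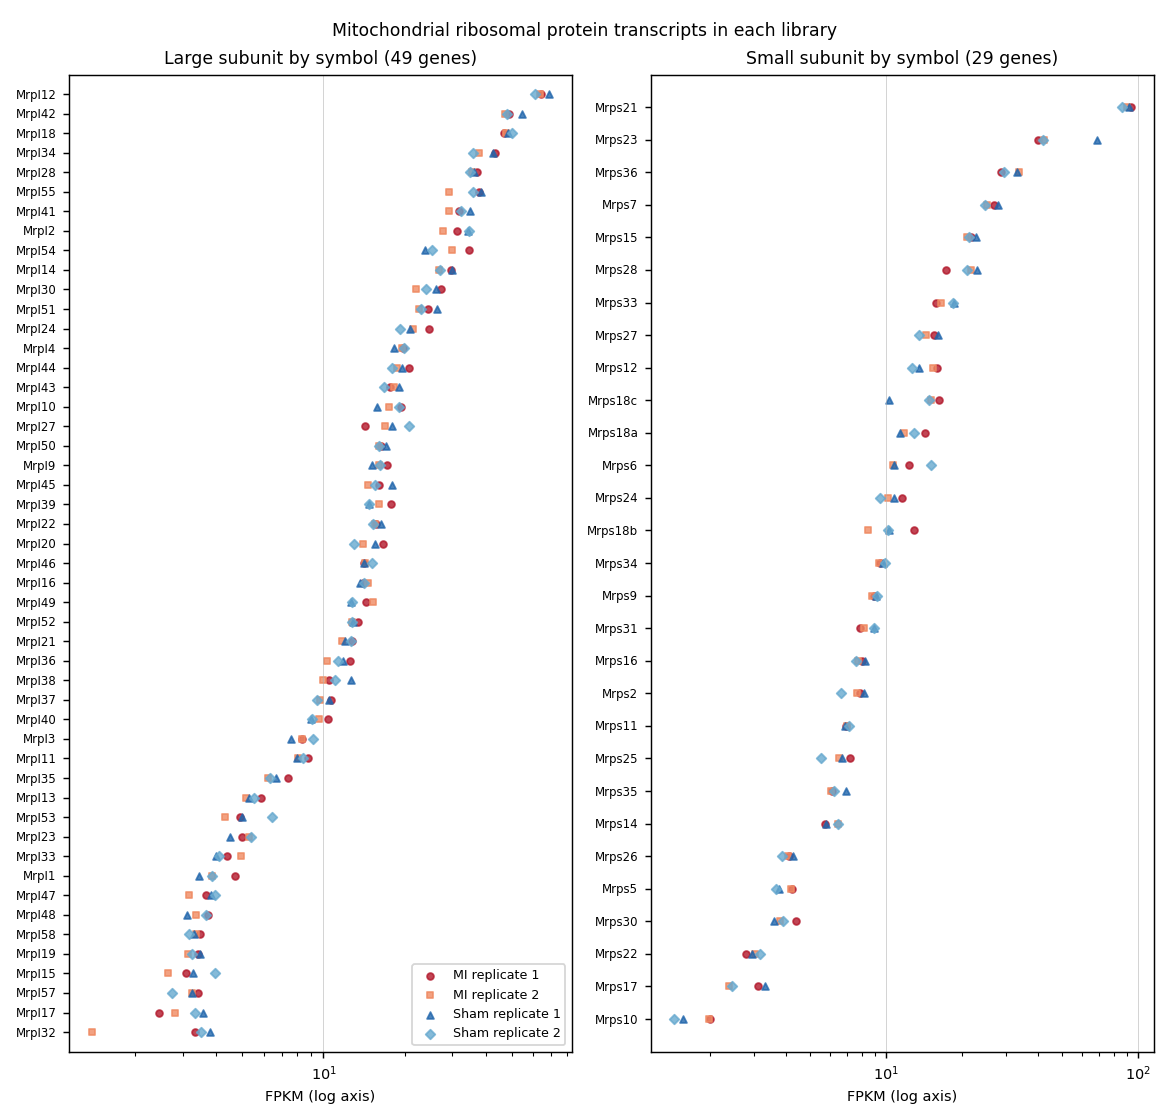
FPKM of each member in each library on a log axis, with members ordered by mean FPKM (large subunit left, small subunit right; circles MI replicate 1, squares MI replicate 2, upward triangles Sham replicate 1, diamonds Sham replicate 2). The libraries' points lie close together for most genes while the genes span 1.75 to 90.4 FPKM; Mrpl32 in MI replicate 2 and Mrps23 in Sham replicate 1 stand away from the other 3 libraries.

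Among the large-subunit genes Mrpl12 was the most abundant. It encodes the stalk protein that helps recruit translation factors, and human MRPL12 also binds the mitochondrial RNA polymerase. Mrpl12 had 64.1 and 63.7 FPKM in MI, against 68.8 and 61.2 FPKM in Sham. Mrpl42, which has no bacterial counterpart, had 48.7 and 47.4 FPKM in MI, against 54.6 and 48.1 FPKM in Sham. Mrpl18, a central protuberance protein, had 46.7 and 47.5 FPKM in MI, against 48.5 and 50.0 FPKM in Sham. On this scale the groups overlapped for Mrpl12 and Mrpl42, while Mrpl18 was slightly lower in both MI libraries. Mrpl34, Mrpl28 and Mrpl55, homologues of bacterial L34, L28 and L31, followed with means of 39.9, 36.0 and 35.4 FPKM. The neighbours in this order are not all separated: the values of Mrpl42 and Mrpl18 cross between libraries, and so do those of Mrpl28 and Mrpl55. The least abundant large-subunit gene was Mrpl32, with a mean of 3.00 FPKM.

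Among the small-subunit genes Mrps21 led, a homologue of bacterial S21 that sits in the body of the subunit. Mrps21 had 93.3 and 90.0 FPKM in MI, against 92.1 and 86.4 FPKM in Sham, and the groups overlapped. Mrps23, a protein with no bacterial counterpart, came next with 39.9 and 42.2 FPKM in MI, against 68.5 and 41.7 FPKM in Sham. Sham replicate 1 stood apart from the other 3 libraries, which lay within 39.9 to 42.2 FPKM. Mrps36 had 28.5 and 33.5 FPKM in MI, against 32.9 and 29.4 FPKM in Sham. Despite its symbol, its product is now known as a component of the 2-oxoglutarate dehydrogenase complex and not of the ribosome. Mrps7, Mrps15 and Mrps28, homologues of bacterial S7, S15 and S1, had means of 26.0, 21.7 and 20.7 FPKM. Mrps10, a homologue of bacterial S10 in the head, was the least abundant member.

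The comparison of MI with Sham asks whether the supply of transcripts for the mitochondrial ribosome differed in the infarcted heart. Most members had lower scaled counts in MI, by a modest and similar amount in both subunits, and no single member passed the test. The median log2 difference of the 78 members was -0.22, against 0.00 over all genes tested, and 72 of the 78 differences were negative, against 49.8% of all genes. Among the 8318 genes tested whose mean FPKM lay in the members' range, the median was -0.04 and 54.7% were negative. The summed level of the members was 2583 and 2732 CPM (counts scaled to a common library size with TMM factors) in MI, against 3381 and 2902 CPM in Sham. The means were 2657 ± 105 CPM in MI and 3141 ± 339 CPM in Sham (SD, n = 2 each), a ratio of 0.846. The MI libraries lay below both Sham libraries, but the Sham libraries differed from each other by more than MI replicate 2 differed from Sham replicate 2. In whole tissue, fewer cells of a type and less RNA per cell cannot be told apart. The 10 ventricular cardiomyocyte markers centred on a log2 difference of -0.21 (median). Of these 10, 5 were lower in both MI libraries, against 21.9% of all genes. Of the 6 endothelial and 7 macrophage markers, 5 and 3 were higher in both, against 24.9% of all genes. Of the 5 red cell markers 0 lay apart in either direction. The part of cell composition in the members' difference was not tested.

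In edgeR's quasi-likelihood test with Benjamini-Hochberg adjustment no member was called at an adjusted p under 0.05, as was the case for all 18475 genes (0.0%). The smallest adjusted p among the members was 0.323, and among all genes 0.185. At an unadjusted p under 0.05, 7 members (8.97%) were lower in MI, against 4.51% of all genes, and 0 were higher, against 7.12% of all genes. Among the 8318 genes whose mean FPKM lay in the range of the members, 6.41% were lower at that threshold. DESeq2 called 1 member as lower, Mrpl15, where it called 1.26% of all genes as lower and 2.18% as higher. In CPM, both MI libraries were below both Sham libraries for 51 members (65.4%), against 21.9% of all genes. This share was 28.05% among the 8318 genes of like mean FPKM. Only Mrpl54 had both MI libraries above both Sham libraries, against 24.9% of all genes, and the other 26 members overlapped.

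The direction depended on how the libraries were scaled. TMM factors were 1.15 and 1.02 in MI, against 0.877 and 0.975 in Sham, and TMM places the median of all genes at 0.00. In the deposited FPKM the members summed to 1292 and 1226 in MI, against 1313 and 1239 in Sham, or 1259 ± 47.2 and 1276 ± 52.0 (SD, n = 2 each), a difference smaller than the spread. By FPKM, 39 members had a higher mean in MI and 39 a lower one. The MI libraries were both under the Sham libraries for 15 members (19.2%), against 8.89% of all genes, and above them for 13 members (16.7%), against 39.0% of all genes. The members' share of all counts was 0.296% and 0.279% in MI, against 0.297% and 0.283% in Sham. With limma on log2(FPKM + 1), whose fold changes understate low genes, 0 members were lower at an unadjusted p under 0.05, against 1.82% of all genes, and 1 was higher, Mrpl54, against 12.0% of all genes.

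On each of these scales the members lay below the typical gene. Their median log2 difference was 0.00 with limma on log2(FPKM + 1), where the median of all genes was 0.10, and 0.00 with library totals alone, where the median of all genes was 0.23. With the transcripts of mitochondrial DNA removed and no scaling factor, the members had a median of -0.08 and all genes 0.14. The members' median minus that of all genes was -0.22 with TMM, -0.22 with library totals alone, -0.22 without the mitochondrial transcripts, -0.09 with limma on log2(FPKM + 1) and -0.20 on log2(FPKM + 0.1). Among genes of at least 5 mean FPKM, which kept 62 members, it was -0.12, with a members' median of -0.13 and 54 of 62 negative. A scaling factor moves all genes nearly alike, so the gap could hardly differ between TMM, library totals and removal of mitochondrial transcripts. Those fits are not separate evidence. Where the measure or the gene set changed, the gap was -0.09 and -0.20 with limma and -0.12 among genes of at least 5 mean FPKM. The negative sign of the members' own median was not seen with library totals alone or FPKM. Of the genes at an unadjusted p under 0.05, 61.2% were higher in MI with TMM, 86.9% with limma on log2(FPKM + 1), 82.0% without the mitochondrial transcripts and 88.7% with library totals alone. The share of all genes lower at that threshold was 2.34% without the mitochondrial transcripts, where 2 members were lower, and 1.6% with library totals alone, where 0 were. It was 1.86% with limma on log2(FPKM + 0.1), where 0 members were lower, 5.56% among genes of at least 5 mean FPKM, where 1 was, and 2.99% with the replicate number as a block, where 5 were.

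**Figure D2:**
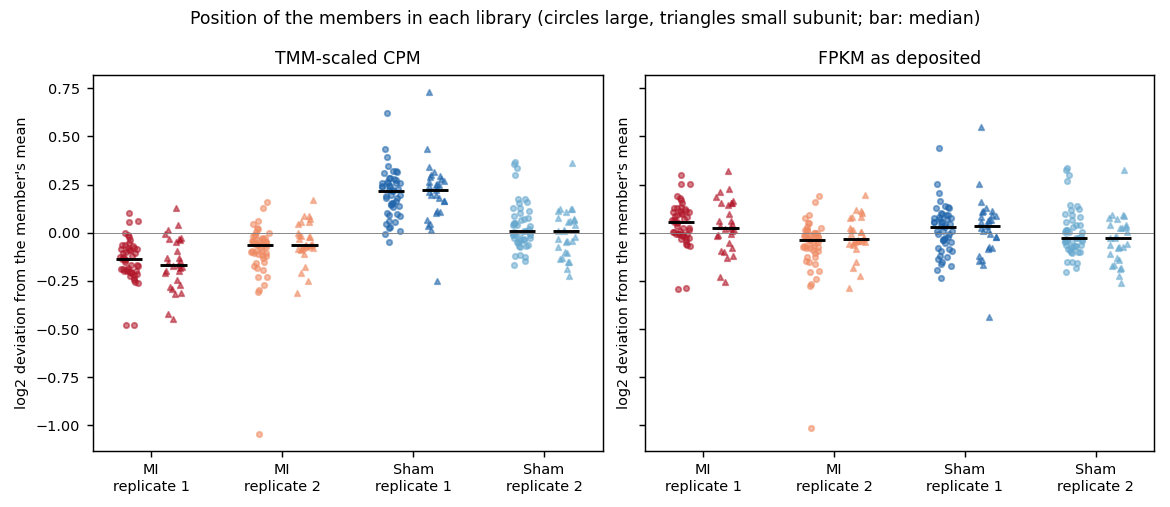
Position of each member in each library as its log2 deviation from its own mean over the 4 libraries, by TMM-scaled CPM (left) and by the deposited FPKM (right); circles are large-subunit genes, triangles small-subunit genes, and bars medians. By CPM the medians over all members are -0.15 and -0.06 in MI replicates 1 and 2, against 0.22 and 0.01 in Sham replicates 1 and 2, and by FPKM all library medians lie within 0.06 of 0.

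The 2 replicates of a group did not sit at the same level. From MI replicate 1 to MI replicate 2 the median log2 CPM difference of the members was 0.08, with 21 of 78 negative. From Sham replicate 1 to Sham replicate 2 it was -0.21, with 66 of 78 negative, about as large as the median difference between the groups. The widest gaps belonged to single genes: Mrpl32 differed by -1.10 between the MI libraries, and Mrps23 by -0.86 between the Sham libraries. Sham replicate 1 is the library that stands highest, and Sham replicate 2 is the one with atrial and fat transcripts. Without Sham replicate 1 the median of the members was -0.12 and 3 members were lower at an unadjusted p under 0.05 (Mrpl2, Mrpl15 and Mrps6), against 6.17% of all genes. Without Sham replicate 2 the median was -0.32 and 20 members (25.6%) were lower, against 6.14% of all genes. Without MI replicate 1, which holds the lung transcripts, the median was -0.16 and 1 member was lower, Mrpl32, against 2.25% of all genes. Without MI replicate 2 the median was -0.25 and 2 were lower, Mrpl17 and Mrpl27, against 2.36% of all genes.

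Large and small subunits did not separate. The median log2 difference was -0.21 for the 49 large-subunit genes, with 46 negative, and -0.22 for the 29 small-subunit genes, with 26 negative. The middle part of the large-subunit genes lay between -0.29 and -0.15 (quartiles) and that of the small-subunit genes between -0.28 and -0.12. Both MI libraries were below both Sham libraries for 34 of 49 and 17 of 29 genes. The summed CPM of the large-subunit genes was 1742 and 1823 in MI, against 2244 and 1961 in Sham. That of the small-subunit genes was 842 and 909 in MI, against 1136 and 941 in Sham. The ratio of large to small was 2.07 and 2.01 in MI, against 1.97 and 2.08 in Sham, so that the Sham values enclosed the MI values. The mean ratio was 2.04 ± 0.05 in MI and 2.03 ± 0.08 in Sham (SD, n = 2 each). By FPKM it was 1.95 ± 0.07 in MI and 1.92 ± 0.07 in Sham. The gap between the subunits' medians, 0.01 on the log2 scale, was under 0.02, the SD between replicates of the same gap within a library. From replicate 1 to replicate 2 the median log2 CPM difference of large-subunit and small-subunit genes was 0.04 and 0.12 in MI. In Sham it was -0.20 and -0.24.

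The symbols do not follow the structure in 3 cases. The products of Mrps30 and Mrps18a sit in the large subunit and Mrps36 in neither, which leaves 51 large-subunit and 26 small-subunit genes. Assigned this way, the medians were -0.20 and -0.23. The ratio of summed CPM was 2.50 and 2.40 in MI, against 2.32 and 2.50 in Sham, and the groups again overlapped. Proteins inherited from the bacterial ancestor and proteins added in mitochondria had similar medians as well. In the large subunit these were -0.22 for 31 genes with a bacterial homologue and -0.19 for 20 without one. In the small subunit they were -0.21 for 17 and -0.28 for 9, and all 9 of the last group were negative. These groups were set by position and homology, and the differences between them were not tested.

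**Figure D3:**
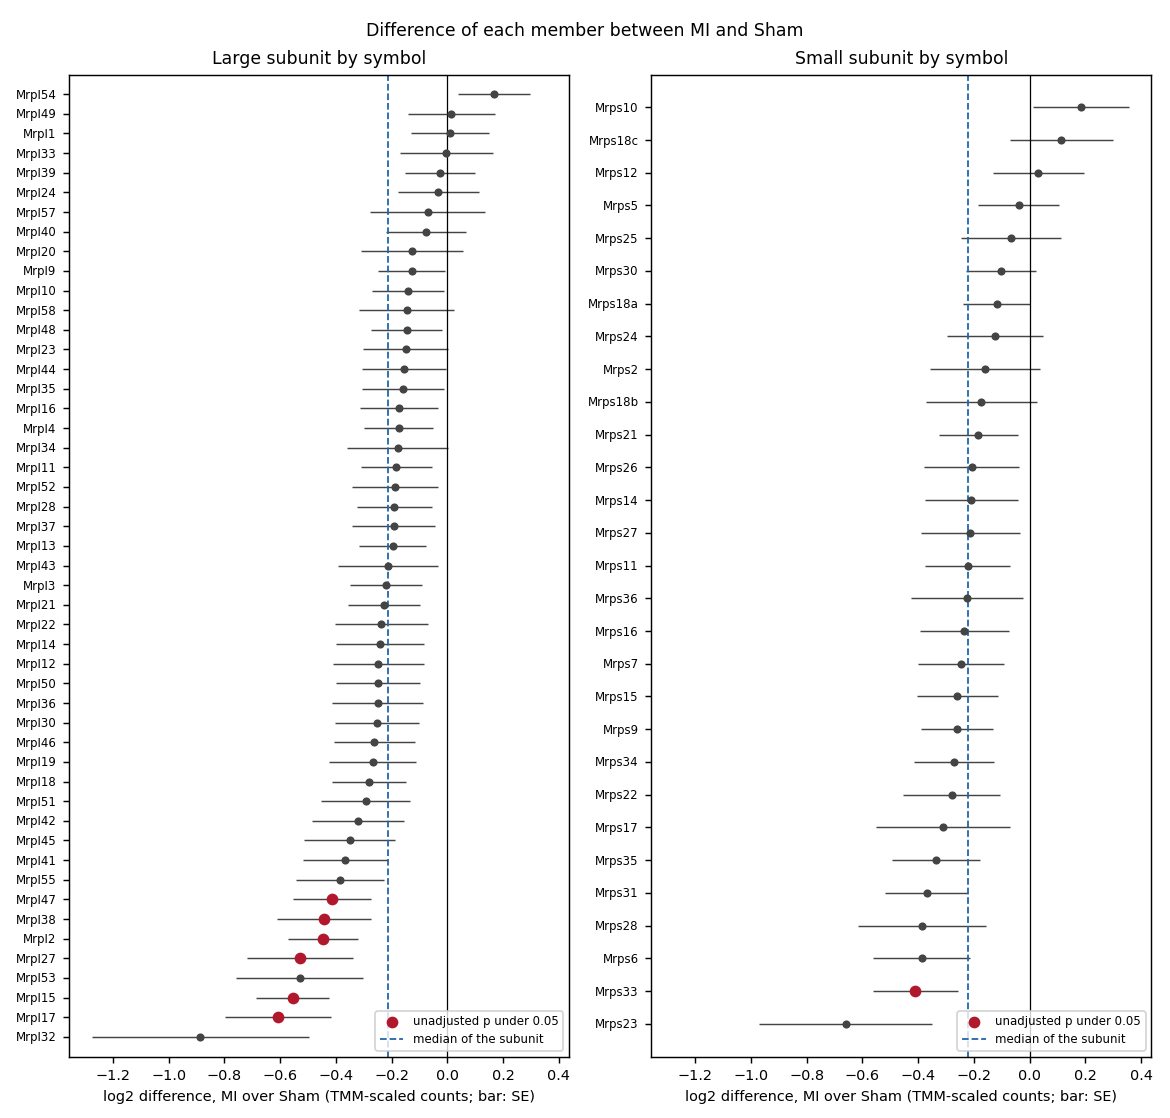
Log2 difference of each member, MI over Sham, from TMM-scaled counts, with its standard error (large subunit left, small subunit right); filled large points have an unadjusted p under 0.05 and the dashed line is the median of the subunit. Of the 78 points 72 lie left of 0, from -0.89 for Mrpl32 to 0.18 for Mrps10, and the standard errors of 0.12 to 0.39 overlap the medians of -0.21 and -0.22 for most genes.

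In the core of the large subunit, Mrpl15 had the smallest p of all members. It is a homologue of bacterial L15 and lies at chr1:4773206-4785739 on the minus strand in the deposited table (ENSMUSG00000033845). Mrpl15 had 25.01 and 23.95 CPM in MI, against 34.5 and 37.4 CPM in Sham, so that the groups were well apart. Its log2 difference was -0.56 ± 0.13 (SE), with an adjusted p of 0.323 in edgeR's quasi-likelihood test and 0.0489 in DESeq2. Over the alternatives edgeR's and limma's adjusted p ran from 0.178 to 0.989, and the difference was -0.25 with limma on log2(FPKM + 1). Mrpl2, homologue of the L2 protein near the catalytic centre, had 35.2 and 34.9 CPM in MI, against 49.8 and 45.6 CPM in Sham. Its difference was -0.45 ± 0.13 (SE), with an adjusted p of 0.344 in edgeR. For both genes the MI libraries were also below the Sham libraries by FPKM.

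Genes of the peptide exit tunnel had a median of -0.20, with 8 of 8 negative. Mrpl17, a homologue of bacterial L17, had 17.9 and 22.8 CPM in MI, against 33.8 and 28.2 CPM in Sham, with no overlap. Its log2 difference was -0.61 ± 0.19 (SE), the second most negative in the large subunit, with an adjusted p of 0.363 in edgeR. Mrpl47, homologue of L29 at the rim of the exit, had 3.66 and 3.16 FPKM in MI, against 3.83 and 3.95 FPKM in Sham, and a log2 difference in counts of -0.41 ± 0.14 (SE). It overlaps Ndufb5 and Actl6a on the other strand, and whether counting used strand is not given in the sources used here, so its value is uncertain. Mrpl45, which anchors the ribosome at the inner membrane, had 39.7 and 40.7 CPM in MI, against 57.6 and 45.0 CPM in Sham. Mrpl44, whose human counterpart is mutated in infantile cardiomyopathy, had 20.8 and 18.7 FPKM in MI, against 19.6 and 17.9 FPKM in Sham. The groups overlapped for Mrpl44, and its difference was -0.15 ± 0.15 (SE). Mrpl44 overlaps Wdfy1 on the other strand and is uncertain for the same reason as Mrpl47.

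The 6 genes of the central protuberance, the crown of the large subunit, were all negative, with a median of -0.27. Mrpl27, a homologue of bacterial L27, had 13.4 and 17.8 CPM in MI, against 22.0 and 23.0 CPM in Sham. Mrpl38, a protein found only in mitochondrial ribosomes and the seventh gene at an unadjusted p under 0.05 (named after its values were seen), had 25.6 and 27.2 CPM in MI, against 40.2 and 31.5 CPM in Sham. Mrpl18 had 62.3 and 71.0 CPM in MI, against 84.0 and 78.1 CPM in Sham. In each of these 3 genes both MI libraries were below both Sham libraries. The log2 differences were -0.53 ± 0.19, -0.44 ± 0.17 and -0.28 ± 0.13 (SE), with adjusted p of 0.408, 0.428 and 0.489 in edgeR. Mrpl18 overlaps Tcp1 on the other strand and is uncertain for the same reason as Mrpl47.

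The stalk, which recruits elongation factors, held the only member whose MI libraries were both above the Sham libraries in CPM. Mrpl54, a stalk-base protein at chr10:81264713-81266934 on the minus strand (ENSMUSG00000034932), had 27.3 and 26.5 CPM in MI, against 24.5 and 23.3 CPM in Sham. By FPKM it had 34.6 and 30.0 in MI, against 23.9 and 25.3 in Sham. The MI libraries were higher by FPKM as well, but the log2 difference of 0.17 ± 0.13 (SE) had an adjusted p of 0.655 in edgeR, and that on log2(FPKM + 1) was 0.38 with an adjusted p of 0.313 in limma. Mrpl12 had 93.8 and 104 CPM in MI, against 131 and 105 CPM in Sham, where only Sham replicate 1 stood apart. Mrpl10 and Mrpl11, the stalk base proteins, had log2 differences of -0.14 ± 0.13 and -0.18 ± 0.13 (SE). Over the 5 stalk genes the median was -0.18, with 4 negative.

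Other large-subunit genes included the most negative member. Mrpl32, a zinc-binding protein matured by the m-AAA protease, had 15.8 and 7.35 CPM in MI, against 23.4 and 19.5 CPM in Sham. Its log2 difference of -0.89 ± 0.39 (SE) had an adjusted p of 0.468 in edgeR, and the MI libraries differed from each other by more than the groups did. MI replicate 2 alone had a low value. Mrpl55 had 37.1 and 32.1 CPM in MI, against 49.2 and 41.2 CPM in Sham. Mrpl42 had 171 and 187 CPM in MI, against 249.3 and 198 CPM in Sham. In CPM both were lower in MI in every pair of libraries, while by FPKM the groups overlapped. The differences were -0.39 ± 0.16 and -0.32 ± 0.17 (SE). Mrpl36, homologue of the last protein to join the bacterial large subunit, and Mrpl3, mutated in a human cardiomyopathy, had differences of -0.25 ± 0.16 and -0.22 ± 0.13 (SE).

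Some large-subunit genes overlapped between the groups in CPM. Mrpl58, a peptidyl-tRNA hydrolase built into the ribosome that rescues stalled chains, had 11.1 and 12.02 CPM in MI, against 13.7 and 11.8 CPM in Sham, and a difference of -0.15 ± 0.17 (SE). Mrpl1, homologue of the L1 protein, had 19.2 and 17.8 CPM in MI, against 18.4 and 18.4 CPM in Sham. Mrpl49 had 25.9 and 30.8 CPM in MI, against 29.4 and 26.7 CPM in Sham. The log2 differences of Mrpl1 and Mrpl49 were 0.01 ± 0.14 and 0.01 ± 0.16 (SE). By FPKM both MI libraries were above both Sham libraries in all 3 genes. Mrpl34 overlapped in CPM too, with a difference of -0.18 ± 0.18 (SE). Mrpl28 did not overlap in CPM, being lower in both MI libraries, with -0.19 ± 0.13 (SE). Mrps30 and Mrps18a, the large-subunit proteins with a small-subunit symbol, were also lower in both MI libraries in CPM. Their differences were -0.10 ± 0.13 and -0.12 ± 0.12 (SE). By FPKM the groups overlapped for Mrpl28, Mrps30 and Mrps18a, and the means were higher in MI. These means were 36.4, 4.085 and 13.0 FPKM in MI, against 35.6, 3.76 and 12.1 FPKM in Sham.

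In the small subunit, the head genes had a median of -0.25 with 7 of 8 negative, and the body genes a median of -0.22 with 16 of 18 negative. Mrps33, a head protein without a bacterial counterpart at chr6:39801804-39810988 on the minus strand (ENSMUSG00000029918), was the only small-subunit gene at an unadjusted p under 0.05. It had 25.2 and 29.5 CPM in MI, against 38.5 and 34.2 CPM in Sham. Its log2 difference was -0.41 ± 0.15 (SE), with an adjusted p of 0.421 in edgeR, and the libraries did not overlap by FPKM either. Mrps7 in the head had 52.8 and 55.5 CPM in MI, against 71.3 and 57.1 CPM in Sham. Mrps14, also in the head and linked to human cardiomyopathy, had 17.9 and 22.5 CPM in MI, against 23.3 and 23.4 CPM in Sham. For Mrps7 and Mrps14 the MI libraries were below the Sham libraries in CPM, while by FPKM the groups overlapped. The differences were -0.25 ± 0.15 and -0.21 ± 0.17 (SE). Mrps10 in the head was the most positive member. It had 15.4 and 17.2 CPM in MI, against 15.7 and 13.1 CPM in Sham, which overlapped.

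In the body, Mrps23 had 59.4 and 70.4 CPM in MI, against 132 and 72.8 CPM in Sham. Its log2 difference of -0.66 ± 0.31 (SE), the most negative of the small subunit, had an adjusted p of 0.489 in edgeR and rested on Sham replicate 1. Mrps28 had 12.9 and 18.2 CPM in MI, against 22.3 and 18.3 CPM in Sham. For Mrps28 only MI replicate 1 was low and only Sham replicate 1 high, the other 2 libraries being almost level. Mrps21 and Mrps15 had differences of -0.18 ± 0.14 and -0.26 ± 0.15 (SE). Mrps22 and Mrps34, mutated in human mitochondrial disease, had -0.28 ± 0.17 and -0.27 ± 0.14 (SE), and Mrps34 overlaps Mapk8ip3 on the other strand and Nme3 on the same strand. Mrps12, homologue of the S12 protein of the decoding centre, had 15.8 and 17.1 CPM in MI, against 17.4 and 14.7 CPM in Sham. Mrps5, homologue of S5 near the message entrance, had 26.6 and 29.4 CPM in MI, against 30.6 and 26.9 CPM in Sham. For Mrps12 and Mrps5 the groups overlapped and the differences were 0.03 ± 0.16 and -0.04 ± 0.15 (SE).

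The 3 paralogues of bacterial S18 occupy different places and had differences of both signs. Mrps18a had 50.2 and 46.6 CPM in MI, against 52.0 and 53.05 CPM in Sham. Mrps18b had 25.8 and 19.0 CPM in MI, against 26.7 and 23.8 CPM in Sham. Mrps18c had 16.7 and 17.3 CPM in MI, against 13.7 and 17.8 CPM in Sham. The log2 differences were -0.12 ± 0.12, -0.17 ± 0.20 and 0.11 ± 0.18 (SE), none of which exceeded its standard error, and for Mrps18c Sham replicate 1 was the low library. Mrps36, outside the ribosome, had -0.22 ± 0.20 (SE). Of the 39 members named by the rule, 6 were positive with TMM, 18 with limma on log2(FPKM + 1) and 18 with library totals alone.

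Counting error was small beside the spread between libraries. The lowest count of a member in any library ran from 283 to 12853, and low counts in these files come in steps of about 4, so that the floor of 3 fragments is 12 counts per library. With 4 counts to a fragment, counting alone would give a standard error of 0.02 to 0.16 for a log2 difference, against the 0.12 to 0.39 of the fit. This covers counting error only, since PCR copies are not independent molecules. Of the 78 members, 27 overlap another gene that has counts, and not each is marked where it is named. Mrpl49, Mrpl58, Mrps7, Mrps18a, Mrps18b and Mrps22 overlap a gene on the other strand and are uncertain for the same reason as Mrpl47. Mrpl3, Mrps6 and Mrps18c overlap a gene on the same strand.

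**Figure D4:**
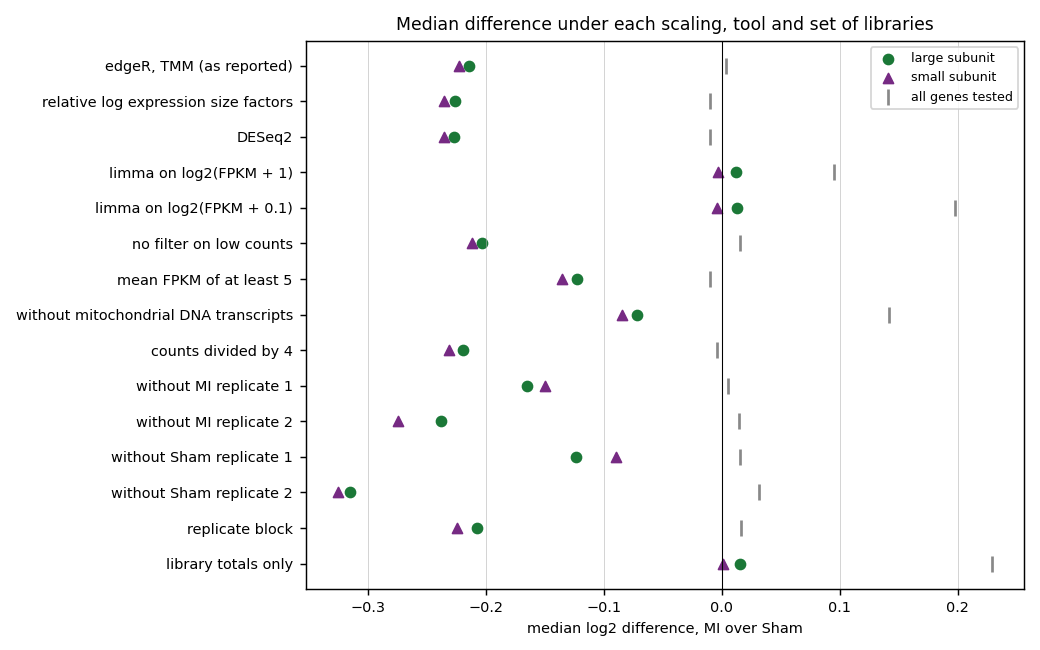
Median log2 difference, MI over Sham, of the large-subunit genes (circles), the small-subunit genes (triangles) and all genes tested (bars), under each scaling, tool, filter and left-out library. The subunits stay within 0.04 of each other in every row; with all 4 libraries and TMM they lie at -0.21 and -0.22, without Sham replicate 1 at -0.12 and -0.09, without Sham replicate 2 at -0.31 and -0.33, and near 0 with FPKM or library totals, where all genes lie at 0.10 to 0.23.

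Genes that build and serve the mitochondrial ribosome lay beside the members. Of all genes tested, 4.51% were lower at an unadjusted p under 0.05, the share to set beside the counts of each list below. The 5 subunits without an Mrp symbol had a median log2 difference of -0.18, all negative. Ptcd3, a head protein of the small subunit, had 49.9 and 49.6 CPM in MI, against 68.1 and 67.3 CPM in Sham, and a difference of -0.45 ± 0.11 (SE) with an adjusted p of 0.327 in edgeR. The replicates of Ptcd3 lay close together within each group. Chchd1 and Gadd45gip1 had differences of -0.27 ± 0.16 and -0.12 ± 0.14 (SE). Of 31 assembly and ribosomal RNA modification genes 29 were tested, with a median of -0.20 and 25 negative. Among them Nsun4, a ribosomal RNA methyltransferase, had -0.38 ± 0.13, and Ndufab1, the mitochondrial acyl carrier protein, -0.40 ± 0.15 (SE), both at an unadjusted p under 0.05, the only 2 of the list. Rbfa and C1qbp, the most abundant of the list, had -0.21 ± 0.14 and -0.31 ± 0.16 (SE).

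The 16 translation factors and insertion genes had a median of -0.19, with 14 negative. Mtif2, the initiation factor, had 23.2 and 25.4 CPM in MI, against 35.8 and 29.9 CPM in Sham, and a difference of -0.44 ± 0.16 (SE). Taco1, an activator of cytochrome c oxidase subunit translation, had 21.3 and 21.9 CPM in MI, against 30.4 and 27.2 CPM in Sham, and a difference of -0.41 ± 0.14 (SE). These 2 were the list's genes at an unadjusted p under 0.05, and the adjusted p were 0.406 and 0.383 in edgeR. The elongation factors Tufm and Gfm1 had -0.19 ± 0.15 and -0.28 ± 0.13 (SE). The 20 aminoacyl-tRNA synthetases and amidotransferase subunits had a median of -0.24, with 17 negative. Fars2 and Rars2, which charge tRNAs with phenylalanine and arginine, both had -0.41, with standard errors of 0.13 and 0.15, and were the list's genes at an unadjusted p under 0.05. Iars2 and Gatc had -0.20 ± 0.12 and -0.21 ± 0.16 (SE).

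The transcripts of mitochondrial DNA and the genes for its transcription and maintenance had medians on either side of the members' median. The 15 transcripts of mitochondrial DNA tested, 13 messages and 2 ribosomal RNAs, had a median of -0.39, with 14 negative and 5 at an unadjusted p under 0.05. DESeq2 called 2 of them, mt-Nd1 at -0.66 ± 0.20 and mt-Nd5 at -0.55 ± 0.18 (edgeR's SE), with adjusted p of 0.0248 and 0.0485 in DESeq2 and 0.363 and 0.388 in edgeR. The most abundant, mt-Co1 and mt-Cytb, had -0.34 ± 0.25 and -0.37 ± 0.21 (SE). The ribosome's own RNAs, named after their values were seen, did not pass the test. The small-subunit RNA mt-Rnr1 had 1164 and 1634 CPM in MI, against 1125 and 721 CPM in Sham, with both MI libraries above both Sham libraries and a difference of 0.60 ± 0.29 (SE), the one positive value of the list, at an adjusted p of 0.502 in edgeR. The large-subunit RNA mt-Rnr2 had 2087 and 3155 CPM in MI, against 2658 and 3046 CPM in Sham, which overlapped, with a difference of -0.12 ± 0.25 (SE). Poly(A) selection captures ribosomal RNA through its tail, so these levels are not those of total RNA. The 11 genes of mitochondrial DNA transcription and maintenance had a median of -0.07, with 7 negative and 0 at an unadjusted p under 0.05. Among them Tfam and Tfb2m, which start transcription, had -0.32 ± 0.14 and -0.33 ± 0.16 (SE), and Mterf2 -0.31 ± 0.22 (SE). The 10 regulators of biogenesis had a median of -0.13, with 8 negative and 0 at an unadjusted p under 0.05. Ppargc1a, the coactivator of mitochondrial genes, had 112 and 121 CPM in MI, against 126 and 242 CPM in Sham, the last being the library with atrial and fat transcripts. Esrra and Myc had -0.21 ± 0.19 and -0.53 ± 0.22 (SE).

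**Figure D5:**
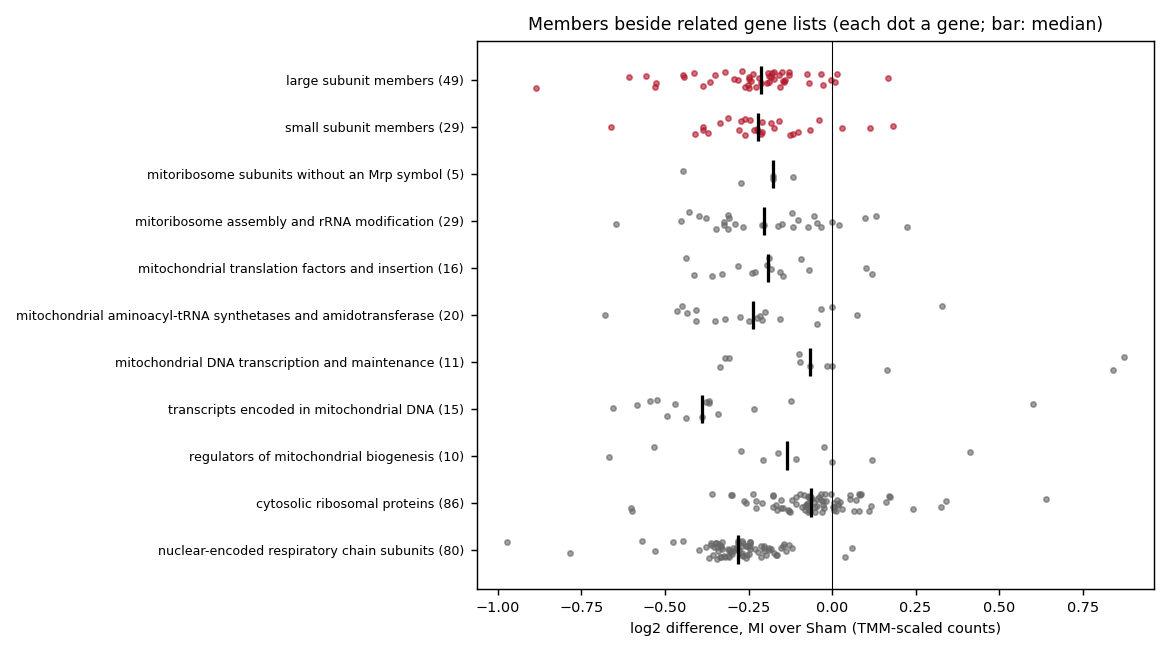
Log2 difference, MI over Sham, of each gene in the subunits and related lists from TMM-scaled counts; each dot is a gene, bars are medians, and the number of genes tested stands in parentheses. The medians of the mitochondrial translation lists lie at -0.18 to -0.24, those of the respiratory chain and of the mitochondrial DNA transcripts at -0.28 and -0.39, and that of the cytosolic ribosomal proteins at -0.06.

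The members resembled the respiratory chain more than the cytosolic ribosome in their median. Over 80 subunits of the respiratory chain encoded in the nucleus the median was -0.28, with 78 negative, against 49.8% of all genes. At an unadjusted p under 0.05, 6 were lower, against 4.51% of all genes. Both MI libraries were below both Sham libraries in CPM for 67, against 21.9% of all genes. Ndufb10, of complex I, had 241 and 295 CPM in MI, against 503 and 419 CPM in Sham, and a difference of -0.78 ± 0.18 (SE), with an adjusted p of 0.307 in edgeR and 0.00615 in DESeq2. Ndufa4 had -0.53 ± 0.16, and the abundant Atp5a1 and Cox6a2 had -0.30 ± 0.16 and -0.31 ± 0.18 (SE). The 86 cytosolic ribosomal proteins had a median of -0.06, with 59 negative. Both MI libraries were below both Sham libraries for 13 and above them for 9, against 21.9% and 24.9% of all genes. Rps20 had 76.0 and 54.5 CPM in MI, against 42.2 and 41.6 CPM in Sham. It was the only cytosolic ribosomal protein gene at an unadjusted p under 0.05, where 7.12% of all genes were higher. Rpl3l, the muscle form of Rpl3, had 124 and 136 CPM in MI, against 237 and 155 CPM in Sham. Rplp1 and Rps15 had 0.02 ± 0.12 and -0.06 ± 0.15 (SE). With library totals alone the medians were 0.00 for the members, -0.05 for the respiratory chain and 0.17 for the cytosolic ribosomal proteins. A scaling factor moves all genes nearly alike, so the order of the lists could hardly change and is no separate evidence. The sign did change for the cytosolic ribosomal proteins. The differences between lists were not tested.

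Promoters of the members were looked at for shared letters, since most members differed in the same direction with TMM. RefSeq's table for GRCm38.p6 holds windows of 250 bases before to 50 bases after the start for 69 of the 78 members. Motifs were searched on both strands, GCGC and TGCGC with any 1 base between them for NRF1, CCGGAAGT for ETS factors such as GABP, and AAGATGGCG for YY1, all of which are known to act on genes for mitochondrial proteins. The NRF1 letters were in 13 members (18.8%), against 5.19% of 27025 genes with a window. The ETS letters were in 12 (17.4%), against 4.31%, and the YY1 letters in 8 (11.6%), against 1.64%. At least 1 of them was in 31 members (44.9%), against 10.3% of all genes, 40.9% of the respiratory chain genes and 32.3% of the cytosolic ribosomal protein genes. Members with at least 1 motif had a median log2 difference of -0.21 and those without -0.20. The parts before the start are shown for the most abundant large-subunit gene, a gene with 2 NRF1 matches, an exit-tunnel gene at an unadjusted p under 0.05, and a small-subunit gene with an ETS match. They are given 5′ to 3′ on the gene's strand, leaving out any stretch that is exon of another transcript, with the matched letters in capitals, from chr11:120484387-120484612 (plus strand), chr11:97315466-97315715 (plus), chr7:105811100-105811337 (minus) and chr9:98601680-98601929 (minus).
Mrpl12: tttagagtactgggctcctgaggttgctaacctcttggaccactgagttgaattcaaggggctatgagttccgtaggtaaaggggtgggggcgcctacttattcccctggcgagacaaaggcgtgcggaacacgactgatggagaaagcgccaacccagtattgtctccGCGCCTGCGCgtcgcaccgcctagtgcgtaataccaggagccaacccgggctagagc
Mrpl45: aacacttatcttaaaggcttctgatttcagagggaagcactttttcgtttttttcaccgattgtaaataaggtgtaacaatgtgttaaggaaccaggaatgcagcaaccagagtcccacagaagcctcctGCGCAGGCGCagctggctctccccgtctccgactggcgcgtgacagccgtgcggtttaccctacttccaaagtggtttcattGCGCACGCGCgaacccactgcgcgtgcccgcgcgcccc
Mrpl17: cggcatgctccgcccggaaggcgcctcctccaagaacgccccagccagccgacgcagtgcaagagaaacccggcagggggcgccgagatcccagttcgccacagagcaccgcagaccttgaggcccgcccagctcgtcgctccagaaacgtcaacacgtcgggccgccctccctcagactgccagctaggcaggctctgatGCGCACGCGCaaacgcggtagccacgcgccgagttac
Mrps22: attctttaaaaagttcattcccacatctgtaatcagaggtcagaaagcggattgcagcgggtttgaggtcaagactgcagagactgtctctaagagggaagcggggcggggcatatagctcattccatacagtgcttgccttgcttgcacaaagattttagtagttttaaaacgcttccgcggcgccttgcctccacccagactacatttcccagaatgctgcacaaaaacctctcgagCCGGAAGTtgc
The match begins 81 bases before the start in Mrpl12, 120 and 38 bases in Mrpl45, 49 bases in Mrpl17 and 11 bases in Mrps22. These positions are counted from the RefSeq start. Of the 250 bases before it, 226 are printed for Mrpl12 and 238 for Mrpl17. The bases left out there lie next to the start, so the matches stand nearer to the printed end than these positions. A match is a description of the letters and not of a bound site.

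Many members share a start region with a gene on the other strand. A gene with a divergent start within 1000 bases was found for 34 of the 78 members (43.6%), against 16.9% of all genes tested. One such pair lies within the set, Mrpl46 and Mrps11, whose starts are 412 bases apart and whose log2 differences were -0.26 ± 0.14 and -0.22 ± 0.15 (SE). These genes overlap on opposite strands, and so do Mrpl43 and Twnk below, so their values are uncertain for the same reason as Mrpl47. Other partners also serve mitochondria: Mrps12 is paired with Sars2, a mitochondrial synthetase, Mrpl43 with Twnk, the mitochondrial helicase, and Mrpl47 and Mrpl36 with the complex I genes Ndufb5 and Ndufs6. Over the 34 partners the median log2 difference was -0.07, with 18 negative. Both MI libraries were below both Sham libraries for 12, against 21.9% of all genes. In the lower direction 0 partners had an unadjusted p under 0.05, against 4.51% of all genes. The 34 partners include Mrpl46 and Mrps11, which are themselves members and partners of each other. The difference between members and partners was not tested. Members lie on 17 chromosomes, with at most 11 on 1 chromosome, chromosome 11.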

How the data were processed

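The authors deposited 1 gene table for poly(A)-selected, strand-marked (dUTP) paired-end libraries of 2 MI and 2 Sham heart samples, as the labels' protocols describe them. Its estimated counts are whole numbers, per the file headers a count for each gene and library, deposited without normalization. Its FPKM values are an abundance the authors had corrected for length and depth, per the file headers. Per the submitters' processing notes the tools included HISAT2 2.0.4 and StringTie 1.3.4d, beside UMI-tools and cutadapt 1.9, with roles left unstated. The sources used here name neither the genome build nor whether counting used strand or molecular identifiers. Of the members, 69 of 78 have the coordinates of GRCm38 (GENCODE M21). Counts pile up at multiples of 4: 1148 to 1174 genes per library have a count of 4 and 284 to 331 a count of 3.

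Counts were filtered (filterByExpr, min.count 10, min.total.count 15), scaled by TMM and compared by the quasi-likelihood test of edgeR 4.0.16 in R 4.3.3, 2-sided, with a model of group alone. Benjamini-Hochberg adjustment ran over 18475 genes, with a threshold of 0.05. CPM are TMM-scaled. Alternatives were DESeq2 1.42.0, limma 3.58.1 on log2(FPKM + 1) and on log2(FPKM + 0.1), other scalings and filters, a replicate block and each library left out. The fits were tested on simulated data with 200 changed genes. The smallest 2-sided p of an exact permutation test at this size is 0.333, and none is given. Replicates of MI had a Pearson correlation of log2 CPM across genes of 0.961, those of Sham 0.934, and libraries of different groups 0.936 to 0.946; no 2 libraries were alike enough to count as 1.

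Members, gene lists and tests were chosen with earlier results of these data known. Named by rule were the 6 members of highest mean FPKM in each subunit, the 6 of smallest p in each direction, the least abundant of each subunit and 18 fixed by name, and of each list the 2 most abundant genes and the 2 of smallest p.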

Additional observations from a re-analysis of the deposited data

How the results depend on the processing

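DESeq2 called 635 genes and 1 member, where edgeR called 0 of either. The counts at an unadjusted p under 0.05 were 2150 genes and 7 lower members. With genes of at least 5 mean FPKM they were 709 and 1 (Mrpl2), a filter that kept 62 members and 4481 genes. In this section, gene counts at that threshold take both directions and member counts the lower one, unless stated otherwise. Lower members numbered 2 (Mrpl15 and Mrpl17) without mitochondrial transcripts, where 2.34% of all genes were lower, and 0 with limma on log2(FPKM + 1), on log2(FPKM + 0.1) and with library totals only, where 1.82%, 1.86% and 1.6% of all genes were lower, limma having 1 higher member (Mrpl54) with either pseudocount. The medians of all, large-subunit and small-subunit members were 0.000375, 0.0118 and -0.00348 with limma on log2(FPKM + 1), 0.000733, 0.0125 and -0.0039 on log2(FPKM + 0.1), 0.00437, 0.0151 and 0.0013 with library totals only, and -0.0808, -0.0721 and -0.0851 without mitochondrial transcripts, against -0.22, -0.21 and -0.22. The large minus small difference of 0.01 was 0.0326 with members assigned by place. With MI replicate 2 against Sham replicate 1, the libraries without the lung and fat markers, it was -0.0213, a value with no test. Why these values moved was not tested.

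Leaving out 1 library at a time gave 0 to 10 genes called, 844 to 3110 genes and 1 to 20 lower members at an unadjusted p under 0.05, medians of -0.325 to -0.0896 for the small subunit, and a large minus small difference of -0.0341 to 0.0359. The 10 genes were called without Sham replicate 1, and the lone library of a group was assumed to vary like the other group. No member was called in these fits. Relative log expression size factors, no filter and counts divided by 4 kept the members' counts within 1.5 times and their medians within the spread between replicates. Library totals only and the pair of single libraries were chosen after seeing the data. Same-numbered libraries did not deviate together (correlation -0.06 over genes). With so few libraries this cannot decide whether the numbers pair them. With the replicate block 0 genes were called and the members' median was -0.22. In that fit 1554 genes and 5 members (Mrpl15, Mrpl17, Mrpl2, Mrpl27 and Mrpl32) had an unadjusted p under 0.05.

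With library totals only the medians of the related gene lists ran from -0.16 for transcripts of mitochondrial DNA to 0.19 for mitochondrial DNA transcription and maintenance, against -0.39 and -0.07 with TMM.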
